A study of Homo sapiens with 4 samples.

Results

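The genes described here are 10 developmental forkhead genes, FOXA1, FOXA2, FOXA3, FOXC1, FOXD1, FOXD2, FOXD3, FOXF1, FOXF2 and FOXQ1, out of 19817 protein-coding genes on chromosomes 1 to 22 and X. They were chosen by name as tissue-specific members of the forkhead family, and open chromatin was read in each gene and in the 100 kb to each side of it. These windows held 160 of the 122856 open regions found in the study. Open chromatin had been mapped with ATAC-seq, where Tn5 transposase inserts sequencing adapters into accessible DNA, in HCT116, an established human colorectal carcinoma line. Control cells carried the empty lentiviral vector pSin-Pur-MCS-Puro, and FOXD2 cells carried the same vector with the full-length coding sequence of FOXD2. Both were stable populations selected with puromycin, and each group had 2 libraries, numbered 1 and 2. The labels do not state whether libraries 1 and 2 are separate cultures; the spread between replicates, and any p-value from it, may therefore be technical.

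Forkhead factors bind DNA through a winged-helix domain, and the family members described here switch on in particular germ layers and tissues. FOXA1, FOXA2 and FOXA3 are pioneer factors of the endoderm, able to bind sites in closed chromatin in gut, liver and lung. FOXF1 and FOXF2 act in the gut mesenchyme downstream of hedgehog signals, FOXC1 acts in mesoderm and neural crest derivatives, FOXD1 in the kidney stroma and FOXD3 in neural crest and pluripotent cells. FOXQ1 is an epithelial member known for high expression in colorectal cancer, and it lies beside FOXF2 and FOXC1 in a cluster on the short arm of chromosome 6.

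The 4 promoters below carry the contrasts that follow, and each shows the 250 bases before the gene start, read 5′ to 3′ on the gene's strand, with CpG dinucleotides in capitals. FOXQ1 and FOXF2 are neighbours, with a start called in all 4 libraries and in 1, FOXD2 is the gene that the vector supplies, and FOXD1 has an open start with few CpGs. The sequences come from RefSeq on GRCh38.p14, at chr6:1311848-1312097 (plus strand) for FOXQ1, chr6:1389326-1389575 (plus) for FOXF2, chr1:47437794-47438043 (plus) for FOXD2 and chr5:73448778-73449027 (minus) for FOXD1.
FOXQ1: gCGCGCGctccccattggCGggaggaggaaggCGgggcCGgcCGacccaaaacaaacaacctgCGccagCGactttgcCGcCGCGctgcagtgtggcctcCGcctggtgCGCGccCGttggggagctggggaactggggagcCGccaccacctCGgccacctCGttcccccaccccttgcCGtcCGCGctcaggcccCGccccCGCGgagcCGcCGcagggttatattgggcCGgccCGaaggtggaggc
FOXF2: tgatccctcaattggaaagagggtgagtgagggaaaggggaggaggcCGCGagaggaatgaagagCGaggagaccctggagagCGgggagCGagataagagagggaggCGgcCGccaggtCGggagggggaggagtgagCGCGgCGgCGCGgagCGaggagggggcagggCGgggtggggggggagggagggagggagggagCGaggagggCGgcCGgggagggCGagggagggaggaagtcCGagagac
FOXD2: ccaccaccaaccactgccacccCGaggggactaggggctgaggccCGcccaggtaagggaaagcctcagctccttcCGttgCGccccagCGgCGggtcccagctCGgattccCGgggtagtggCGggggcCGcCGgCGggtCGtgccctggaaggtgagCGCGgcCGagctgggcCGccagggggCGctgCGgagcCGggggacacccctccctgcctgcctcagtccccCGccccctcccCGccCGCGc
FOXD1: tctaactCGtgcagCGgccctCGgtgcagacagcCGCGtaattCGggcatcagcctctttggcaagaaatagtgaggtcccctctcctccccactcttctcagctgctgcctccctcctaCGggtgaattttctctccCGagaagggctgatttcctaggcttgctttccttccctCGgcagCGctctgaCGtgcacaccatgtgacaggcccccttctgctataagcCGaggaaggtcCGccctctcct

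The promoter table held 8 of the 10 genes. The FOXQ1 stretch has 29 CpGs, FOXF2 has 20, FOXD2 has 24 and FOXD1 has 13, against a median of 17 over 15812 promoters of protein-coding genes. FOXF2, whose start was called in 1 library, thus has more CpGs before its start than FOXD1, whose start was called in all 4. The other promoters held 26 CpGs in FOXA1, 28 in FOXA3, 37 in FOXC1 and 24 in FOXD3. GC content ranged from 58.8% in FOXD1 to 76.8% in FOXC1 and FOXD2, with a median of 62.4% over all promoters. The forkhead letters TGTTTAC, searched on both strands, occur in 2.26% of promoters of this length, and the core TGTTTA, which lies inside the longer motif, in 8.07%. Neither was found in the 8 stretches, which says only that these letters are not in these windows. Other forms of the forkhead site were not searched.

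The deposited lists held 64675 to 82739 intervals per library and covered 31.3 to 39.5 Mb. FOXD2 replicate 2 had the shortest list. The genome-wide background recovered from the lists was 1.68 and 1.71 tags in the controls and 1.84 in both FOXD2 libraries. Chromatin at marker genes was checked against the labelled cell type. Starts of 8 of 10 colon epithelium genes were open in all 4 libraries, against 3 of 8 fibroblast, 2 of 8 leukocyte and 1 of 8 endothelial genes. The share over all protein-coding genes was 64.6%, so the colon epithelium count does not by itself mark the cell type. No library had a start interval at PTPRC, the pan-leukocyte surface phosphatase, at PECAM1, an endothelial adhesion molecule, or at DCN, a fibroblast proteoglycan. Other genes of these lists went the other way. The fibroblast genes COL1A1, COL1A2 and PDGFRA, the leukocyte genes SPI1 and CD68 and the endothelial gene ERG were open in all 4 libraries. Of the colon epithelium genes, KRT20 was open in 3 libraries and VIL1 in 2. The exceptions between groups were CD3E, of the T-cell receptor complex, open in both controls only, and CDH5, the endothelial cadherin, open in both FOXD2 libraries only. The CD3E intervals were at percentiles 36.2 and 11.6 of their lists and the CDH5 intervals at 12.6 and 9.31.

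Most of the 10 genes were open at their start, whichever vector the cells carried. An interval lay within 1000 bp of the start in all 4 libraries for 8 of the 10 genes, against 64.6% of all protein-coding genes. FOXA2 had such an interval in 3 libraries and FOXF2 in 1. With this window and the lists as deposited, none of the 10 starts was open in both libraries of one group and neither of the other. Over all protein-coding genes 0.429% of starts were open with FOXD2 only and 0.823% in controls only. With 500 bp to each side, or with a −log10 q of at least 5, the FOXA2 start was open in the controls only, as were 0.802% and 0.843% of all starts at those settings. Strength is given below as summit tags, the pileup of tags at the top of an interval, recovered from the authors' fold and p. It is also given as the within-list percentile of the authors' −log10 q. Tags were not scaled between libraries, whose read depth is unknown. In the 63 window regions shared by all 4 libraries, median tags were 54 and 50 in the controls, against 52 and 45 in the FOXD2 libraries.

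Within-list percentiles of the strongest start interval in each FOXD2 library exceeded those in both controls at FOXA1, FOXD1 and FOXQ1, 3 of the 8 genes open in all libraries, against 13.7% of all genes open in all 4. They were lower in both FOXD2 libraries at none of the 8, against 19.2%. At FOXD1 the gap was narrow, with 83.5 in FOXD2 replicate 2 against 83.2 in control replicate 2. At FOXA1 the values mix 2 regions, with 37.9 and 23.1 in the controls against 68.9 and 50.9 with FOXD2. Those of control replicate 1 and FOXD2 replicate 2 come from a region inside the neighbouring gene TTC6. That region alone overlapped between the groups, at 37.9 and 18.2 in the controls against 21.8 and 50.9 with FOXD2. Percentiles come from lists of different lengths, so a difference between them does not by itself show a change.

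**Figure D1:**
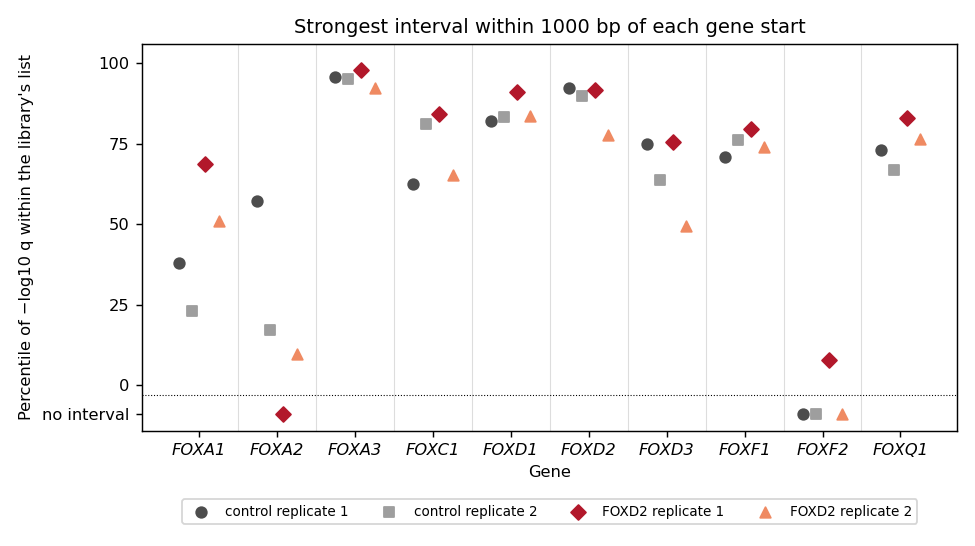
Strongest interval within 1000 bp of each gene start, as the percentile of −log10 q within the library's own list, for each gene and each of the 4 libraries; points on the lowest line have no interval. FOXA3 is highest in every library, but outside FOXD2 replicate 1 its points are a region at the start of the neighbouring gene SYMPK. The region across the FOXA3 start was at 92.3 and 87.8 in the controls, below the FOXD2 gene at 92.4 and 90.0. The FOXA1 points of control replicate 1 and FOXD2 replicate 2 are a region inside the neighbouring gene TTC6. FOXF2 has an interval only in FOXD2 replicate 1.

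Among the endoderm genes, FOXA3 had the strongest start in every library, and the order of FOXA1 and FOXA2 differed between libraries. The FOXA3 start region (chromosome 19, 45864004 to 45864635, hg38) had 123 and 97 summit tags in the 2 controls (replicate 1 first, here and below) against 134 and 73 in the FOXD2 libraries. The group values overlapped. A second region on the upstream side, 45862527 to 45863518, lies at the start of SYMPK, a gene for an mRNA 3′-end processing scaffold, and had 139, 124, 103 and 86 tags in the same order. There both controls were above both FOXD2 libraries, in tags and in percentile (95.6 and 95.1 against 91.7 and 92.2). The share of all regions with this order is not given here. The 2 regions are separate, but both fall within 1000 bp of the FOXA3 start. The FOXA3 percentiles of 95.6, 95.1, 97.9 and 92.2 therefore take the stronger of the 2 regions. The FOXA3 start region alone was at 92.3, 87.8, 97.9 and 85.8.

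FOXA1 was open in all 4 libraries at a lower level. Its start region (chromosome 14, 37594293 to 37595357) had 31 and 27 tags in the controls, against 50 and 31 in the FOXD2 libraries. FOXD2 replicate 1 stood above the others, and control replicate 1 equalled FOXD2 replicate 2 in tags. The percentiles of this region did not overlap, at 25.5 and 23.1 in the controls against 68.9 and 33.8 with FOXD2. In FOXD2 replicate 2 the interval ran from 37594792 to 37595090 and did not reach the start itself. A second region, 37595944 to 37596440, upstream of FOXA1 and inside the neighbouring gene TTC6, had 35, 27, 31 and 37 tags. The strongest shared region of the window lay 5398 bp past the other end of the gene, at 37583285 to 37584154, at a mean percentile of 73.7.

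FOXA2 had 36 tags in control replicate 1, 22 in control replicate 2 and 22 in FOXD2 replicate 2 at 22584396 to 22585024 on chromosome 20, inside the gene, and no interval there in FOXD2 replicate 1. FOXD2 replicate 1 instead had an interval further inside, at 22582860 to 22583090, with 26 tags. A region 1098 bp beyond the higher end of the gene, 22586588 to 22587215, was in all 4 libraries with 38, 37, 28 and 36 tags. The FOXA2 call depends on the window: with 500 bp to each side or a −log10 q of at least 5 it was open in both controls and neither FOXD2 library, and with 2000 bp in all 4 libraries.

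The FOXD genes were open at the start in every library. At FOXD1 (chromosome 5, 73448035 to 73449119) the controls had 81 and 85 tags, the FOXD2 libraries 93 and 65. At FOXD3 (chromosome 1, 63322209 to 63323298) the values were 54 and 44 in the controls, against 47 and 33 in the FOXD2 libraries. The groups overlapped in tags at both genes. The percentiles overlapped at FOXD3 but not at FOXD1, with 82.2 and 83.2 in the controls against 91.1 and 83.5 with FOXD2. FOXD3 had a stronger region before its start, 63316750 to 63317682, with 105 and 110 tags in the controls, against 89 and 78 in the FOXD2 libraries. There the groups did not overlap in tags, while the within-list percentiles of 93.8, 96.8, 95.2 and 94.7 did overlap. The share of all regions whose tags separate in this way is not given here. FOXD1 had a weak interval inside the gene, 73447025 to 73447291 with 33 tags, in FOXD2 replicate 2 only.

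At FOXD2 itself the start was open in all 4 libraries and the reach of the intervals differed between the groups. The start region (chromosome 1, 47437203 to 47438525) had 121 and 104 tags in the controls, against 114 and 71 in the FOXD2 libraries, so summit heights overlapped. From the gene start, the interval extended 193 and 198 bp into the gene in the controls, against 481 and 445 bp in the FOXD2 libraries. On the upstream side its edge lay at −802 and −841 bp in the controls and at −668 and −595 bp in the FOXD2 libraries. The intervals of the FOXD2 libraries were thus shifted toward the gene at both edges, with no overlap between the groups. The share of all genes with such an upstream edge is not given here, so only the reach into the gene has a background. Further inside the gene, at 47438790 to 47439493, the FOXD2 libraries had 65 and 60 tags, control replicate 1 had 44 and control replicate 2 had no interval.

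Intervals covered 514 and 199 bases of the FOXD2 gene in the controls, against 1158 and 1135 in the FOXD2 libraries. The gap between the higher control and the lower FOXD2 library was 621 bases, at percentile 99.32 among 19817 genes. For the reach of the start interval the gap was 247 bp, at percentile 99.47 among the 9137 genes with a start interval across the start in every library. Among those genes, 9.06% reached further in both FOXD2 libraries and 23.9% in both controls. Of the 5 forkhead genes with such an interval, FOXD2 and FOXA3 reached further in both FOXD2 libraries, FOXA3 by 5 bp only, and none in both controls. More covered bases inside the gene in both FOXD2 libraries were seen for 10.6% of all genes, and among the 10 forkhead genes for FOXD2 only. Fewer were seen for 18.7% of all genes and for none of the 10. These measures of reach were chosen after the intervals at FOXD2 had been seen, and they carry no test. The vector holds the FOXD2 coding sequence, so open vector copies and the open chromosomal gene cannot be told apart inside the coding part. Without control replicate 1 the gap in covered bases was 936.

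**Figure D2:**
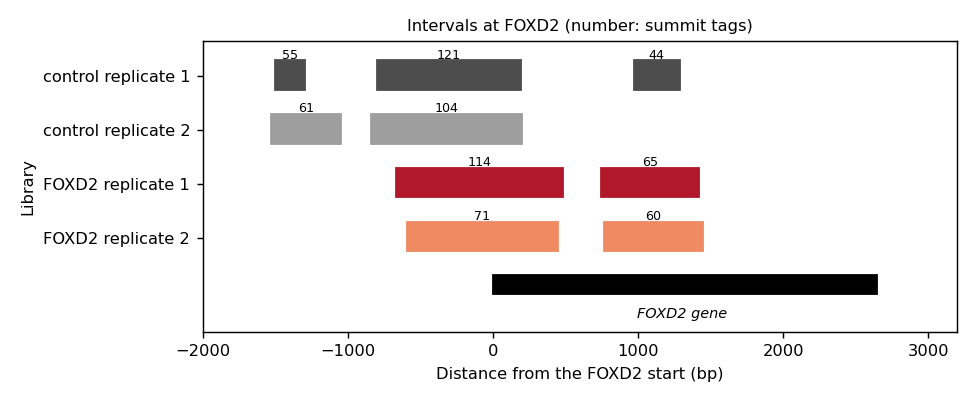
Intervals at FOXD2 in the 4 libraries, by distance from the gene start in bp, with the summit tags printed above each interval and the gene as a black bar. The start interval of the FOXD2 libraries reaches 481 and 445 bp into the gene, against 193 and 198 bp in the controls, and the upstream interval is present in the controls only.

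Upstream of FOXD2, at 47436513 to 47436995 and 1049 bp before the gene, both controls had an interval with 55 and 61 tags and neither FOXD2 library had one. This region lies in the long non-coding RNA gene LINC01389. Its local background, at 14.9 and 13.4 tags, was high, and a call at the mean of these needed 30 tags. The site kept its call with a −log10 q of at least 5, with lists of equal length and with windows around summits. The other shared regions of the FOXD2 window were weaker than the start: 36, 27, 41 and 20 tags at 47449973 to 47450721, 27, 23, 35 and 22 at 47388737 to 47389159, and 24, 19, 21 and 17 at 47424420 to 47425020. FOXE3, a lens forkhead gene in the same window, had a start interval in 3 libraries. Among 12811 genes open at the start in all 4 libraries, CENPV, GSK3A and PDE4A had the 4 percentiles most like those of FOXD2 (92.4, 90.0, 91.8 and 77.8), at Euclidean distances of 0.8, 1.29 and 1.95 percentile points.

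On the short arm of chromosome 6, FOXQ1 and FOXC1 were open and FOXF2, between them, had few called intervals. FOXQ1 had 58 and 49 tags at its start (1311505 to 1313143) in the controls, against 80 and 58 in the FOXD2 libraries. The lower FOXD2 library equalled the higher control in tags. The percentiles did not overlap, at 73.2 and 66.9 in the controls against 83.0 and 76.5 with FOXD2. A second region inside FOXQ1, 1313655 to 1313989, had 49 and 41 tags in the controls, against 47 and 45 in the FOXD2 libraries. At FOXC1 (1609002 to 1610045) the controls had 59 and 84 tags and the FOXD2 libraries 84 and 52. In FOXD2 replicate 2 that interval ended at 1609890, short of the start at 1609915. A further region inside FOXC1, 1610919 to 1611969, was also shared, with 46, 37, 46 and 32 tags, and another, 1610295 to 1610689, was absent only from control replicate 2.

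FOXF2 had no interval across its start in any library. FOXD2 replicate 1 had weak intervals inside the gene at 1390278 to 1390566, with 17 tags, and at 1390748 to 1390997, with 21 tags. Control replicate 1 had one at 1392857 to 1393230 with 24 tags, and the other two libraries had none in the gene. The single start call of FOXF2 was lost with 500 bp to each side, with a −log10 q of at least 5 and with lists of equal length. Near it, a strong region shared by all 4 libraries lay 7113 bp before the gene, at 1381678 to 1382463, with 78 and 59 tags in the controls, against 76 and 45 in the FOXD2 libraries.

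Among the 10 windows, that of FOXQ1 was the only one with at least 2 regions gained with FOXD2, meaning called in each FOXD2 library but in no control, and none lost, the reverse. Over all protein-coding genes 6.27% of windows had this pattern. The first gained region, 1287062 to 1287610, lies 24488 bp before the FOXQ1 start inside the long non-coding RNA gene LOC105374879, and had 43 and 29 tags in the FOXD2 libraries. The second, 1325321 to 1326301, begins 13223 bp past the FOXQ1 start and 63275 bp before FOXF2, inside FOXF2-DT, a divergent transcript of FOXF2, with 31 and 41 tags. At their local backgrounds calls needed 11 and 14 tags, and each FOXD2 library had over 2 times that number. Their percentiles were 81.4 and 67.5 for the first region and 59.4 and 75.7 for the second. Both kept their call in each alternative that filtered, shortened or re-centred the lists. The FOXQ1 start lies between them, and its values are given above.

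**Figure D3:**
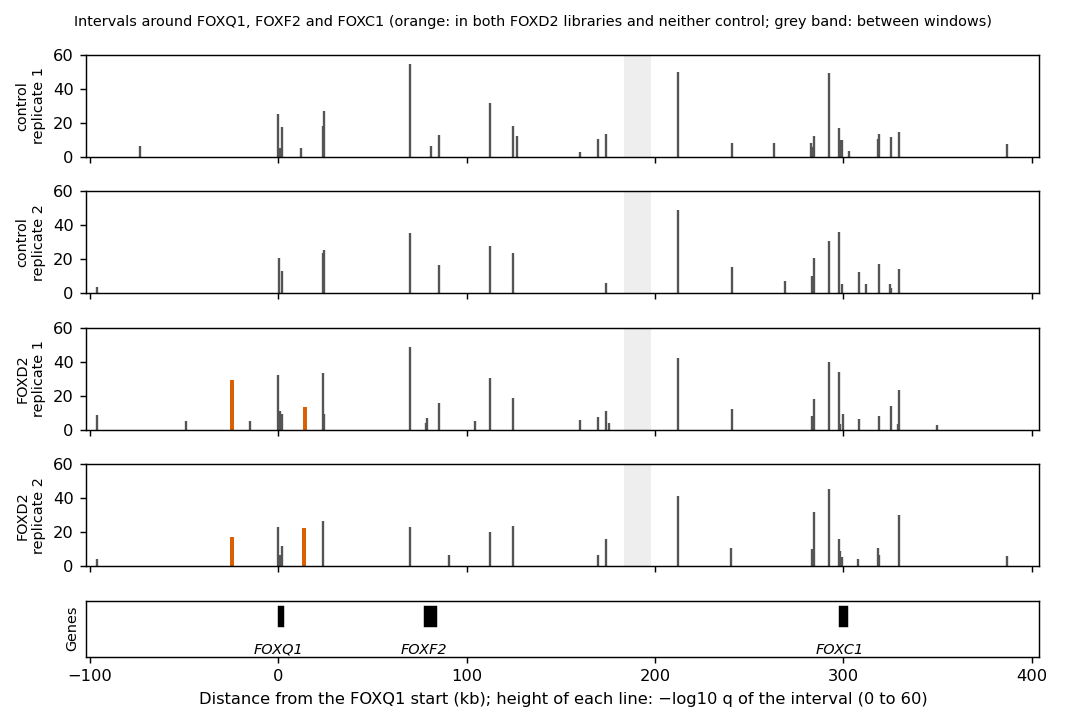
Intervals from 100 kb before FOXQ1 to 100 kb past FOXC1, by distance from the FOXQ1 start in kb, with line height as −log10 q in each library and the grey band marking the gap between the windows. The orange lines at 24488 bp before and 13223 bp past the FOXQ1 start are called with FOXD2 only.

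FOXF1, the paralogue of FOXF2 on chromosome 16, was open beside the gene and not inside it. The region 86509184 to 86510375, 152 bp outside the lower end of the gene, had 65 and 69 tags in the controls, against 76 and 61 in the FOXD2 libraries. No library had an interval inside FOXF1 itself, and its start is placed here at either end of the gene. Past the other end, regions 2287 and 4229 bp away were also shared, the first with 48, 67, 39 and 52 tags and the second with 51, 50, 45 and 38. FOXC2 and FOXL1, which neighbour FOXF1 in a forkhead cluster, had a start interval in 1 library and in none. The window of FOXF1 had no gained and no lost region among its 24.

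Windows differed in their number of open regions, in the order FOXA3, FOXF1, FOXC1 and FOXF2, FOXQ1, FOXD1 and FOXD2, FOXA2, FOXA1 and FOXD3. By mean covered bases the order differed in part, with FOXA3 highest at 12121.25, FOXD3 at 4088.5, above FOXD2 at 3975.25, and FOXA1 and FOXA2 lowest at 2330.25 and 2179.75. FOXA3 had 35 regions (percentile 90.6 among all genes) and 10 other protein-coding genes in its window. FOXA1 and FOXD3 had 6 regions each (percentile 9.93), with 2 and 1 other protein-coding genes. The median over the 10 windows was 16.5 regions, against 18 for all genes with quartiles of 11 and 26. Of the 160 regions, 92 were nearest to one of the 10 genes and the rest to a neighbour. The strongest shared region of a window was at the start of another gene for FOXA3 (MYPOP), FOXD1 (BTF3), FOXD3 (ALG6) and FOXF1 (MTHFSD), at mean percentiles of 99.4, 94.4, 99.6 and 99.6. Only in the FOXD2 window was it the forkhead gene's own start, at 88.0. In the FOXF2 and FOXQ1 windows it was the region 7113 bp before FOXF2, at 84.4, and in the FOXC1 window 1523967 to 1524522, at 88.8. In the FOXA2 window it was 22684073 to 22684728, at 59.9.

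**Figure D4:**
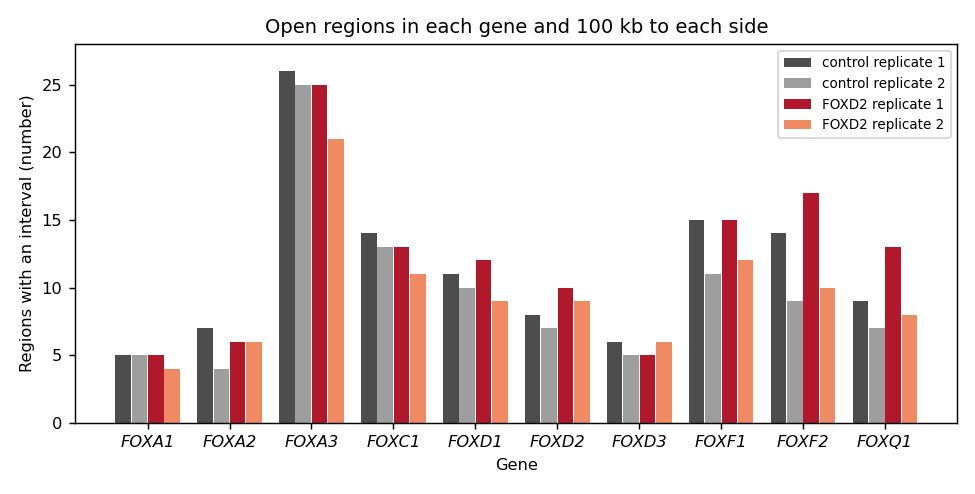
Number of open regions in each gene and the 100 kb to each side, per library; bars start at 0 and regions in 2 windows count in both. FOXA3 has 21 to 26 regions per library, and FOXA1 and FOXD3 have 4 to 6.

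The total open chromatin of the windows overlapped between the groups. Intervals covered 55690 and 48035 bases in the controls, against 54466 and 44641 with FOXD2. The means were 51862.5 (SD 5410, n = 2) and 49553.5 (SD 6950, n = 2), and the difference was −2309 bases (exact permutation test over libraries, two-sided, p = 0.667, where the smallest p possible is 0.333). The difference was smaller than the spread within either group, and its sign turned when 1 library was left out, to 1518.5 without control replicate 1 and 2603.5 without FOXD2 replicate 2. The windows took 0.144% and 0.137% of all covered bases in the controls and 0.138% and 0.143% with FOXD2.

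Of the 160 regions, 63 (39.4%) were in all 4 libraries, against 32.5% of regions in the genome. Gained regions numbered 4, or 2.5%, against 3.89% of all regions, and lost regions 6, or 3.75%, against 3.87%. These shares are near or below the background. A further 62 regions (38.8%, genome 40.8%) were in 1 library only, 20 and 5 in the controls, against 26 and 11 in the FOXD2 libraries, and 25 (15.6%, genome 18.9%) were mixed. Leaving out a library leaves 1 library in its group, so a call in that library and in neither of the other group suffices. The counts of gained and lost regions can then only stay or rise. Without control replicate 1 they were 8 gained and 12 lost, and without control replicate 2 they were 4 and 26. Without FOXD2 replicate 1 they were 15 and 12, and without FOXD2 replicate 2 they were 30 and 9. The shares over the genome rose under the same counting. Gained regions went from 3.89% to between 6.18% and 19.5% of all regions, and lost regions from 3.87% to at least 5.93%. The higher counts are therefore not particular to these windows. Summit tags had a median of 50 in regions shared by all 4 libraries, 36 in gained, 22 in lost and mixed and 16 in single-library regions.

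No gained or lost region lay inside any of the 10 genes. The share of all genes without such a region inside is not given here, so this count has no background. A gained region was in the windows of 3 genes, FOXA3, FOXF2 and FOXQ1, where 41.1% of all genes have one. A lost region was in the windows of 4 genes, FOXA1, FOXA3, FOXD1 and FOXD2, where 45.9% of all genes have one. The windows of 4 genes, FOXA2, FOXC1, FOXD3 and FOXF1, had neither, as did 33.8% of all genes. The region past FOXQ1 is in the windows of both FOXQ1 and FOXF2.

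The gene-rich FOXA3 window had both directions within a short distance. A lost region, 45876900 to 45877386, lay 3103 bp past FOXA3 with 32 and 18 tags in the controls. A gained region, 45878138 to 45878556, lay 4341 bp past the gene with 47 and 35 tags in the FOXD2 libraries. Another gained region, 45925079 to 45925436, had 37 and 34 tags and lay nearest to NOVA2, a neuronal splicing factor, at 8298 bp. Lost regions were also at 45922312 to 45922676, nearest to the germ cell gene NANOS2 at 7534 bp, with 22 and 17 tags, and at 45952667 to 45953036, inside NOVA2, with 17 and 16 tags. The gained and lost sites next to FOXA3 are separate regions and do not overlap.

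The remaining lost regions were far from the gene that put them in a window. In the FOXA1 window, 37622272 to 37622918 lay 27023 bp beyond FOXA1, inside TTC6, with 22 and 9 tags in the controls, where 8 were needed. In the FOXD1 window, 73496992 to 73497292 lay 48215 bp from FOXD1 and 1150 bp from BTF3, a basic transcription factor gene, with 39 and 32 tags. The lost calls in the FOXA1 window, 3103 bp past FOXA3 and inside NOVA2 each ended with a −log10 q of at least 5 and with lists of equal length. The other 3 lost regions and the 4 gained regions kept their calls in both.

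**Figure D5:**
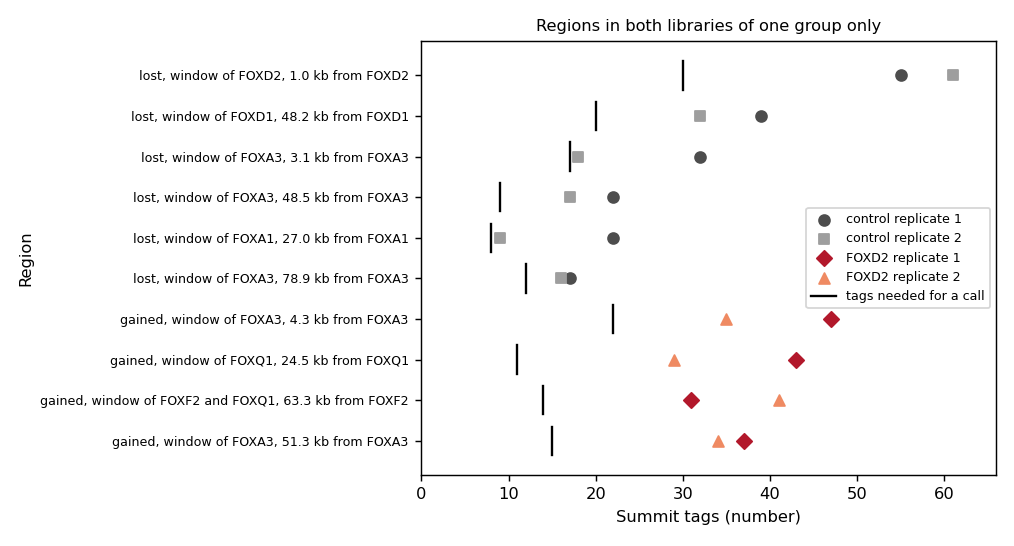
Summit tags of the 10 regions present in both libraries of one group and neither of the other, with a vertical line for the tags that a call needed at the region's local background. The 4 gained regions lie well past the line in both FOXD2 libraries, and the lost regions at 3.1 kb from FOXA3 and 27.0 kb from FOXA1 lie next to it in control replicate 2.

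Related genes gave a setting for these values. Of 13 broadly used forkhead genes, such as FOXO1, FOXO3, FOXK1 and FOXM1, all 13 had an open start in all 4 libraries. Of 22 other developmental forkhead genes, 6 did and 8 had no start interval in any library, such as FOXL2. Among 16 hedgehog signalling genes, the upstream pathway of FOXF1 and FOXF2, 10 starts were open in all 4 libraries, among them SMO, GLI1 and GLI2, and 3 in none: the ligand SHH, the receptor PTCH1 and GLI3. Among 11 endoderm factors that act with FOXA, 7 starts were open in all 4 libraries, among them HNF4A, CDX2 and GATA6, and 3 in none, NR5A2, GATA4 and GATA5. Of all protein-coding genes, 64.6% had a start open in all 4 libraries and 24.6% in none. The hedgehog and endoderm counts of starts open in all 4 are near that share. The median number of regions per window was 20 for the broadly used forkhead genes, 17 for the other developmental ones, 22 for hedgehog genes and 18 for endoderm factors, against 18 for all genes. No start in these 4 lists was gained or lost. In their windows, gained and lost regions were 9 (3.14%) and 9 (3.14%) of 287 for the broadly used forkhead genes and 6 (1.76%) and 11 (3.24%) of 340 for the other developmental ones. They were 15 (3.96%) and 14 (3.69%) of 379 for hedgehog genes and 5 (2.33%) and 9 (4.19%) of 215 for endoderm factors. Over the genome the shares are 3.89% and 3.87%, with each region counted once. In the lists a region counts in each window that holds it. Counted so, the 10 genes described here had 5 gained (2.89%) and 6 lost (3.47%) of 173. Among the other developmental genes, the windows of FOXE3, FOXC2 and FOXL1 share regions with those of FOXD2 and FOXF1.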

How the data were processed

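ATAC-seq intervals of 4 HCT116 libraries were used as deposited. The submitters' processing notes name MACS2 2.2.7.1, bedtools, Picard, Bowtie2 2.3.4.1, cutadapt 3.4 and the hg38 build. Their settings and roles, and any Tn5 shift, were not given in the sources used here. Each interval carries, as the authors deposited it, a fold (a ratio over local background), −log10 p and −log10 q, and a score that was not used. Read depth is unknown. The fold and −log10 p fix summit tags and local background through a Poisson relation. They were solved for the 409 intervals of the windows, and the recomputed −log10 p differed from the deposited one by at most 0.00052. The lowest summit was 8 or 9 tags.

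Regions are unions of intervals that share at least 1 bp. Gene positions and promoters came from RefSeq (GRCh38.p14). The promoter table placed the start of 8 genes, and both ends were used for FOXA2 and FOXF1. Exons and introns were not used here. Scripts ran in Python 3.11.15 with pandas 2.3.3, numpy 2.4.6 and SciPy 1.17.1 and were tested on simulated data. Tags needed for a call assume the mean local background of the libraries with the region and the lowest p of the other lists. All 10 genes are named. Regions named were those touching a gene or within 1000 bp of its start, the gained and lost regions, and the strongest shared region per window. A few others near a gene were named after their values were seen. The genes, lists and tests were chosen with earlier results of these data known.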

Additional observations from a re-analysis of the deposited data

How the results depend on the processing

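With windows of 20 kb the counts were 2 gained and 2 lost regions, with 50 kb 3 and 5, with a −log10 q of at least 5 they were 4 and 5, with lists of equal length 5 and 3, and with summit windows 4 and 6. Leaving out each library in turn gave 4 to 30 gained and 9 to 26 lost regions. With 1 library left in a group these counts can only stay or rise, and the shares over the genome rose too. The number of genes with an open start in all libraries was 8 or 9 throughout. The difference in covered bases ranged from −7221.5 to 2603.5 when each library was left out, and was positive at 1518.5 without control replicate 1 and 2603.5 without FOXD2 replicate 2. With the replicate number as a block it was −2309, from −1224 and −3394 in the pairs (exact sign-flip test, p = 0.5, the smallest p possible). That test therefore cannot tell a difference from none. The labels do not say that equal numbers share a culture or day. The added alternatives for FOXD2, chosen after seeing the data, gave gaps of 247 to 283 bp in reach and 621 to 936 covered bases. No interval in any list had fewer than 8 summit tags. At the local backgrounds of the gained and lost regions a call needed 8 to 30 tags. A missing interval therefore does not show closed chromatin.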
